A study of Mus musculus with 4 samples.

Results

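The ADAM genes encode membrane proteins with a disintegrin and a metalloprotease domain. They were read in gonadal white adipose tissue (WAT) of male NMRI mice on a diet rich in fat. Members were chosen by name, as the probe sets whose gene symbol is Adam followed by digits and at most 1 letter, which leaves out the secreted Adamts proteases and Adamdec1. This gave 34 genes among 21225 probe sets, of which 20239 carry a symbol. FD mice received a diet with 18% fat for 8 days from an age of 40 days, and ND mice stayed on the standard diet with 3.3% fat, so both were killed at 48 days. RNA of 3 mice was pooled for each diet, and each pool was hybridised to 2 Affymetrix Mouse Gene 1.0 ST arrays. The 2 arrays of a diet are technical duplicates of 1 pool. There is therefore no test of the diets, and pool, dissection and diet cannot be told apart. The sample titles name the 18% diet a high fat diet, while its fat content is that of the FD of the study.

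Members with an active metalloprotease domain cut other membrane proteins near the cell surface and so release growth factors, cytokines and receptor fragments, a step called ectodomain shedding. A second group lacks the catalytic residues and works as adhesion molecules and receptors for secreted Lgi proteins, mainly in neurons. The largest group in the mouse is known from testis, sperm and epididymis, where several members are needed for the sperm surface and for fertility. In fat, ADAM17 releases TNF-alpha from the cell surface, and ADAM12 is known from the precursors of fat and muscle cells.

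Values are log2 expression values as deposited, 1 per probe set, and levels of different probe sets were not set against each other. A gene was called higher or lower where 3 conditions held. Its FD and ND means had to be 1.5-fold or more apart, which is 0.58 in log2 units, with no overlap between FD and ND arrays, and its average over the 4 arrays had to reach 6. Of the 34 members, 20 reached that level and 14 did not. Among the 20, 1 was called lower in FD, Adam7, against a background of 4.28% of the 18211 probe sets tested. Higher in FD was 0 of 20, with a background of 1.33%, and 19 were not called. Both FD arrays lay above both ND arrays in 8 of the 20 members, or 40%, near the background of 36.3%. Both FD arrays lay below both ND arrays in 1 of 20, with a background of 27.2%, and in the other 11 the arrays overlapped. The median difference of the 20 was 0.06 on the log2 scale (-0.01 with cyclic loess scaling), beside 0.03 for all probe sets tested.

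**Figure D1:**
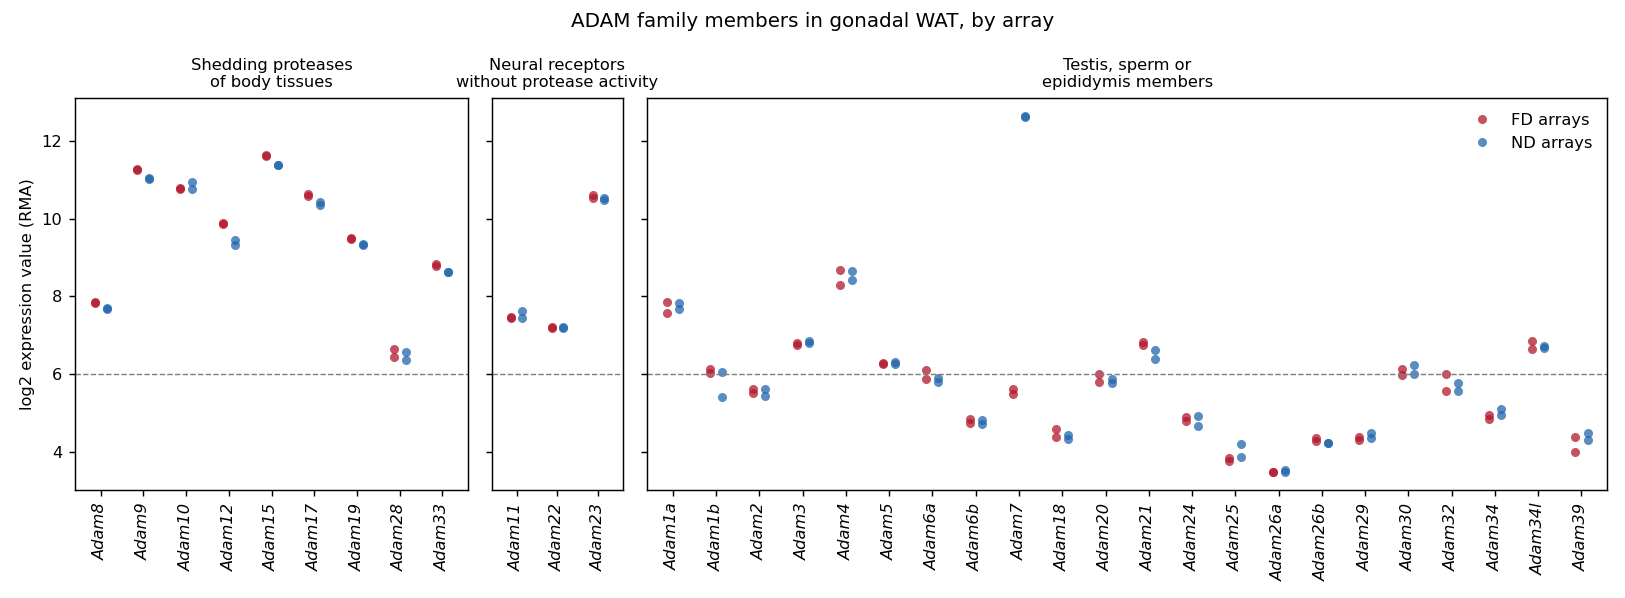
Log2 expression value of the 34 ADAM members on each array, grouped by role, with FD arrays (red) left of ND arrays (blue) for each gene and a dashed line at the level of 6. Adam7 is at 5.48 and 5.61 on the FD arrays and at 12.65 and 12.62 on the ND arrays, while in every other member the diets lie within 0.50 of each other on average.

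The array facts that bear on these values are few. Each array had 85.2% to 86.2% of its probe sets at 6 or more, and the duplicates correlated over probe sets with r = 0.998 in FD and 0.996 in ND. The duplicates of a member lay a median of 0.09 apart in FD and 0.11 apart in ND, with the widest gaps at 0.45 in FD for Adam32 and at 0.66 in ND for Adam1b. As a check of the tissue, all 11 measured adipocyte markers were at 6 or more in both diets and none was called, with a median difference of 0.06. Of 10 measured genes of liver secreted proteins, 9 reached a mean of 6 and 8 of these were called higher in FD, beside a background of 1.33%. The median difference of the 9 was 1.40. The albumin gene Alb, at 4.14, had the highest difference of all probe sets, and 1 of the 9 was lower in FD, at -0.40.

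Adam7 encodes a member without protease activity that epididymal epithelium makes and passes on to maturing sperm. Its log2 values were 5.48 and 5.61 on the FD arrays, against 12.65 and 12.62 on the ND arrays. Both FD arrays were under the level of 6 and both ND arrays were far above it, and the gap between the nearest arrays was 7.01. The FD mean was 5.55 ± 0.10 and the ND mean 12.64 ± 0.02 (SD, n = 2 arrays of 1 pool each), a difference of -7.09. Because the FD value is close to the low end of the scale, the size of this difference is not fixed. With values under 6 set to 6 it was -6.64, which is 99.4-fold. In RNA of a whole tissue, fewer cells of a type and less RNA per cell cannot be told apart. The next largest difference in size was that of Adam12, at 0.50.

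Of 22 listed markers of epididymal epithelium, 19 were named on the array and 15 reached a mean of 6. In FD, 9 of these 15 were called lower and 0 higher, beside backgrounds of 4.28% and 1.33%, with a median difference of -1.16. The filter averages the 4 arrays, so it keeps markers that are high on the ND arrays alone and drops those low in both diets. Over all 19 measured markers the median difference was -0.31. The 4 with the largest differences as deposited were Defb22, a defensin that coats sperm, at -6.07, Rnase9, of the ribonuclease A family, at -5.95, Crisp4, a cysteine-rich secretory protein, at -4.58, and Eppin, a protease inhibitor of the sperm surface, at -4.03. The summed linear level of the 19 markers was 1737 to 1766 on the FD arrays and 11259 to 11357 on the ND arrays. Like Adam7, Defb22, Rnase9 and Crisp4 were under 6 on both FD arrays and above 9 on both ND arrays, so the size and order of their differences are not fixed either. With values under 6 set to 6 the difference was -5.50 for Defb22, -4.60 for Rnase9 and -3.50 for Crisp4, and that of Eppin stayed at -4.03. Other defining markers were low in both diets, with Gpx5, Cst12, Defb41 and Ovch2 under 6 on every array, and Lcn6, Lcn8, Lcn9, Lcn10, Cst11 and Ros1 were not called. The part of epididymal RNA in the Adam7 difference was not tested. Of 6 seminal vesicle genes, 1 reached the level of 6 and it was not called.

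**Figure D2:**
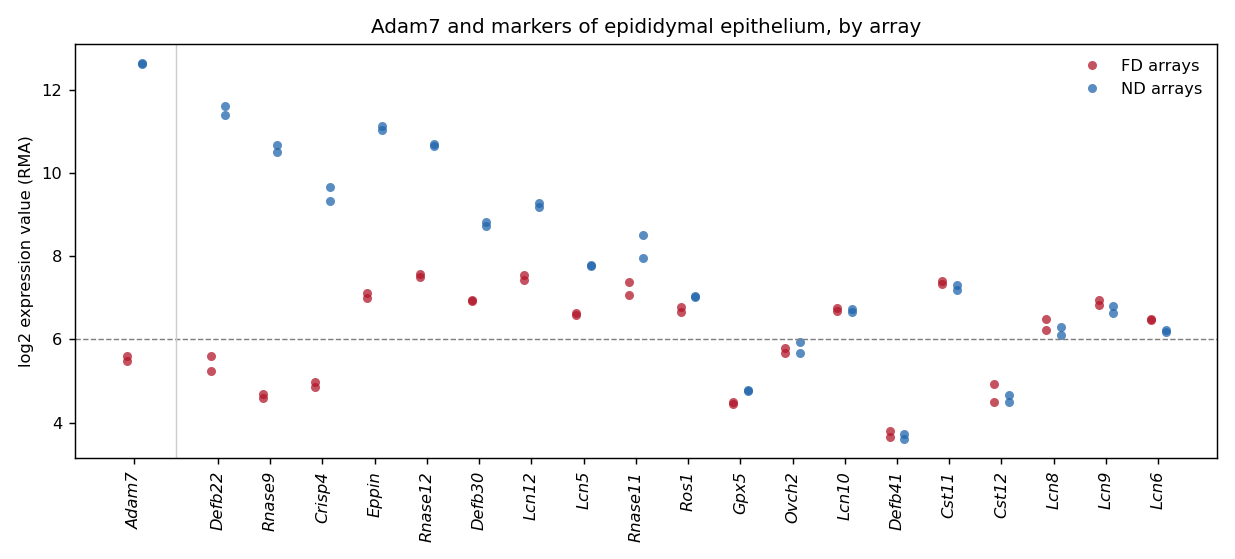
Log2 expression value on each array of Adam7, left of the vertical line, and of the 19 measured markers of epididymal epithelium ordered by their difference, with FD arrays (red) left of ND arrays (blue) and a dashed line at 6. Adam7 and 9 of the markers are separated between the diets by more than 1.5-fold, while the markers at the right lie at similar values in both diets.

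The neighbours of Adam7 on the chromosome did not share its difference, except in direction for 1 of them. In the RefSeq annotation of GRCm38.p6, Adam7 lies between the neurofilament gene Nefm and Adamdec1, and Adam28 follows Adamdec1. Adamdec1 encodes a secreted relative of the family known from macrophages and dendritic cells. Its values were 6.24 and 5.998 on the FD arrays and 6.03 and 6.13 on the ND arrays, which overlap. Adam28, a protease first known from lymphocytes, is known from epididymis as well. It was at 6.64 and 6.44 on the FD arrays and at 6.35 and 6.57 on the ND arrays. These overlap too, with a difference of 0.08. On the other side, Nefm and Nefl had differences of 0.04 and 0.07 at means under 6, and Dock5, a regulator of Rac, one of 0.29. The hormone gene Stc1, next to Adam28, was called lower in FD, at 8.33 and 8.51 on the FD arrays and 9.24 and 9.28 on the ND arrays, a difference of -0.84.

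**Figure D3:**
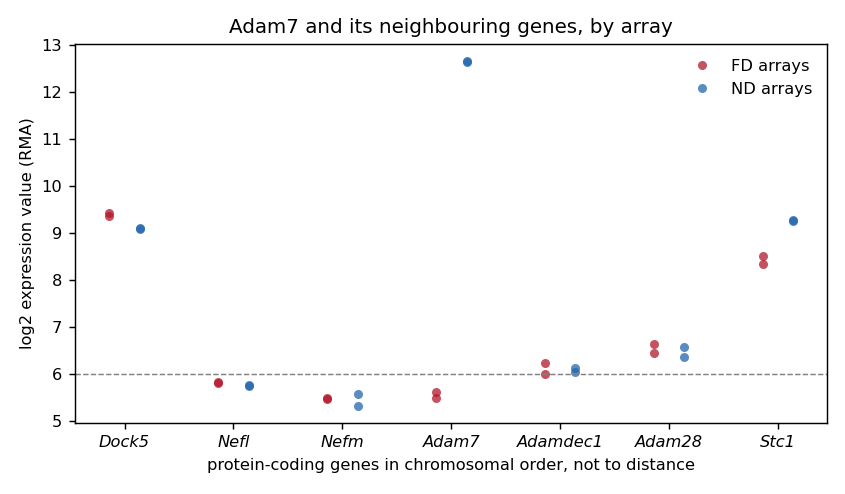
Log2 expression value on each array of Adam7 and the 3 protein-coding genes on either side, in chromosomal order and without distances, with FD arrays (red) left of ND arrays (blue) and a dashed line at 6. Adam7 (-7.09) and Stc1 (-0.84) are lower on the FD arrays, and the other 5 genes differ by 0.29 or less.

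The shedding proteases of body tissues were Adam8, Adam9, Adam10, Adam12, Adam15, Adam17, Adam19, Adam28 and Adam33, and all 9 reached the level of 6. None of the 9 was called, and their median difference was 0.18. In 7 of the 9 both FD arrays lay above both ND arrays, beside the background of 36.3%. The differences of these 7 lay between 0.15 and 0.50, all under the 1.5-fold threshold of 0.58.

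Adam12, or meltrin alpha, known from mesenchymal precursors of fat and muscle, came nearest to the threshold. It was at 9.86 and 9.89 on the FD arrays, against 9.31 and 9.44 on the ND arrays. The FD arrays were both above the ND arrays, by 0.42 between the nearest ones, and the difference of 0.50 is 1.42-fold. A difference at least as high was found in 2.16% of the probe sets tested. With the 1.3-fold threshold Adam12 was called higher.

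Adam15, a protease with an integrin-binding disintegrin domain, was at 11.63 and 11.61 on the FD arrays and at 11.37 on both ND arrays, a difference of 0.25. Adam9, or meltrin gamma, was at 11.25 and 11.28 on the FD arrays and at 11.01 and 11.05 on the ND arrays, a difference of 0.23. In both genes the duplicates lay closer together than the diets did. Adam17, the main sheddase of TNF-alpha and of several ligands of the EGF receptor, was at 10.62 and 10.57 on the FD arrays and at 10.34 and 10.44 on the ND arrays, a difference of 0.21. Adam33, known from smooth muscle and fibroblasts, was at 8.84 and 8.78 on the FD arrays and at 8.62 and 8.64 on the ND arrays, a difference of 0.18. These genes also had no overlap between the diets.

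Adam19, or meltrin beta, a protease that cuts neuregulin, was at 9.51 and 9.47 on the FD arrays and at 9.31 and 9.34 on the ND arrays, a difference of 0.17. Adam8, known from myeloid cells, was at 7.84 and 7.83 on the FD arrays and at 7.68 and 7.69 on the ND arrays, a difference of 0.15. In each gene both FD arrays lay above both ND arrays, as in 36.3% of all probe sets tested. A difference at least as high was found in 23.3% of these probe sets for Adam19 and in 26.1% for Adam8. Adam10, the main sheddase of Notch receptors and of E-cadherin, was with Adam28 one of the members of this group with overlap. Its values were 10.76 and 10.80 on the FD arrays and 10.77 and 10.94 on the ND arrays, a difference of -0.07.

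**Figure D4:**
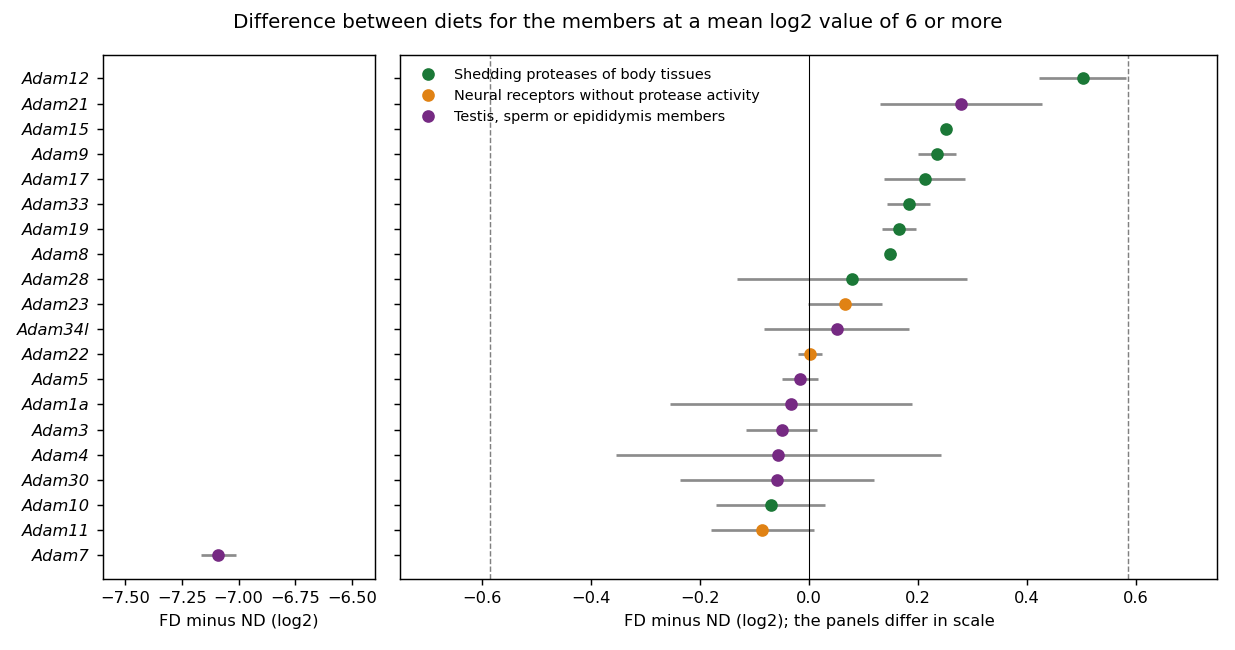
Difference between the FD and ND means (log2) of the 20 ADAM members at a mean of 6 or more, ordered by size and coloured by role, with Adam7 in a panel of its own and bars from the smallest to the largest difference between an FD and an ND array. Dashed lines mark 1.5-fold, and Adam12 at 0.50 and Adam21 at 0.28 have the highest differences, both inside the lines.

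Markers of the cells that surround adipocytes were read beside these proteases. Of 12 markers of fibroblasts and preadipocytes, 4 were called higher, with Thy1, a surface glycoprotein, at 0.79 and the collagen gene Col3a1 at 0.73 as the largest, and their median difference was 0.49. Their summed linear level was 56660 to 56682 on the FD arrays and 43275 to 43673 on the ND arrays. Of 8 mesothelial markers, 6 were called higher, with a median of 0.97 and sums of 9672 to 9804 in FD and 5356 to 6001 in ND. Of 11 macrophage markers, 3 were called higher, with a median of 0.46 and sums of 15969 to 16099 in FD and 11449 to 13035 in ND. Without ND array 1, 1 of the 11 was called. Of 9 endothelial markers, 1 was called higher, with a median of 0.34 and sums of 18668 to 18818 in FD and 14379 to 15438 in ND. All the markers in these 4 lists were at a mean of 6 or more. The background called higher was 1.33% of the probe sets tested. Both FD arrays lay above both ND arrays in 11 of 12 fibroblast, all 8 mesothelial, all 11 macrophage and all 9 endothelial markers. Over all probe sets tested this share was 36.3%. The remaining fibroblast marker, Pdgfra, was at -0.04, with both FD arrays below both ND arrays. The part of these cells in the values of Adam12 and the other shedding proteases was not tested.

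**Figure D5:**
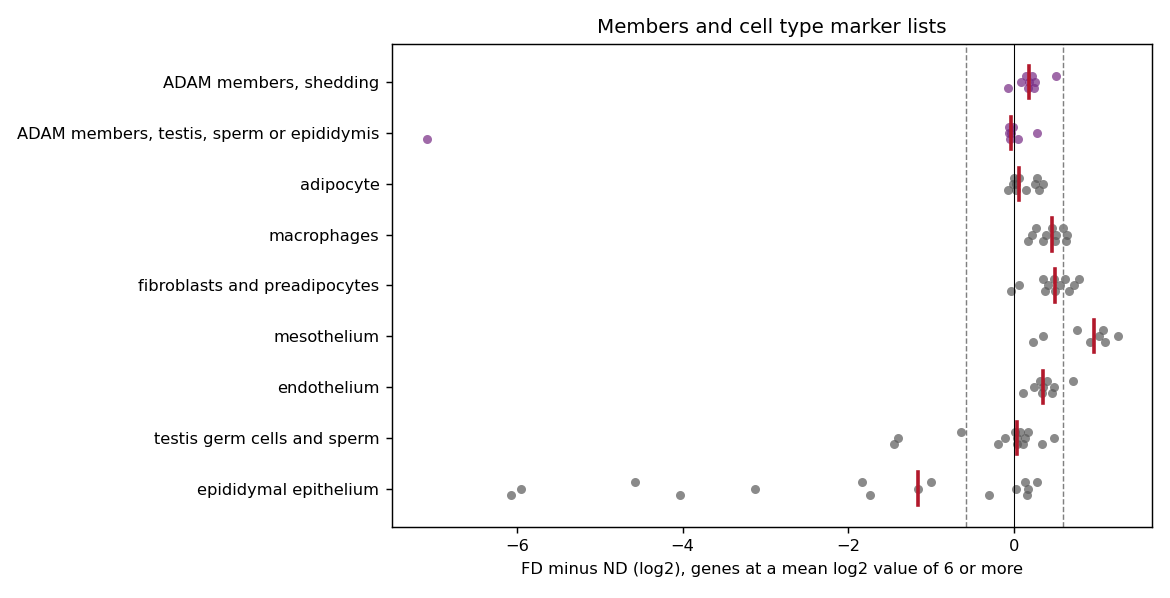
Difference between the FD and ND means (log2) of single genes at a mean of 6 or more (dots), for the shedding ADAM members, the ADAM members of testis, sperm or epididymis and 7 cell type marker lists, with the median of each row as a red bar and dashed lines at 1.5-fold. The medians are 0.18 for the shedding members, 0.06 for adipocyte markers, 0.46 for macrophage markers, 0.49 for fibroblast markers and -1.16 for epididymal markers, and Adam7 is the single ADAM member outside the lines.

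The neural members without protease activity did not differ beyond the duplicates. Adam11 was at 7.45 and 7.46 on the FD arrays and at 7.63 and 7.45 on the ND arrays, a difference of -0.09. Adam23 was at 10.52 and 10.61 on the FD arrays and at 10.53 and 10.48 on the ND arrays, a difference of 0.07. Adam22, a partner of postsynaptic proteins in neurons, had a difference of 0.00. In all 3 genes the arrays of the diets overlapped.

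Besides Adam7, 21 members are known mainly from testis and sperm. Of these, 7 reached the level of 6, none was called, and their differences lay between -0.06 and 0.28 with a median of -0.03. Adam21, a testis member, was at 6.73 and 6.82 on the FD arrays and at 6.60 and 6.39 on the ND arrays, a difference of 0.28, and it was the one member of the 7 without overlap. Adam30, also of testis, lay at the edge of the filter, at 5.98 and 6.12 on the FD arrays and at 5.996 and 6.22 on the ND arrays, which overlap. The other 5 were Adam3 (cyritestin), needed for the passage of sperm into the oviduct, Adam1a, which pairs with ADAM2 in the testis, Adam4, Adam5 and Adam34l. Their differences lay between -0.06 and 0.05, and the arrays of the diets overlapped in each.

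The 14 members under a mean of 6 all belong to this group. They were Adam1b and Adam2, the subunits of sperm fertilin, Adam6a, Adam6b, Adam18, Adam29, Adam32, the testases Adam24, Adam25, Adam26a, Adam26b and Adam34, and Adam20 and Adam39. Their array values ran from 3.47 to 6.12, and their differences from -0.22 in Adam25 to 0.35 in Adam1b. The Adam1b value rests on ND array 1. Its values were 6.03 and 6.12 on the FD arrays and 5.40 and 6.06 on the ND arrays, which overlap, and without ND array 1 the difference was 0.02. Adam1a and Adam1b, Adam6a and Adam6b, Adam26a and Adam26b, Adam34 and Adam34l, and the cluster of Adam20, Adam24, Adam25 and Adam39 are close copies, so a probe of one may detect RNA of another, which makes their values uncertain.

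Of 20 measured markers of testis germ cells and sperm, 14 were at 6 or more. Of these 14, 3 were called lower in FD and 0 higher, beside backgrounds of 4.28% and 1.33%, with a median of 0.03. Odf1, a protein of the sperm tail, was at -1.44, Smcp, of the sperm mitochondrial capsule, at -1.41, and Crisp2, of the acrosome and tail, at -0.65. The summed linear level of the list was 2447 to 2482 on the FD arrays and 3169 to 3205 on the ND arrays. This lower sum does not hold for each gene, as the differences of the 14 ran from -1.44 to 0.48. Both FD arrays lay above both ND arrays in 5 of the 14 and below them in 5, beside backgrounds of 36.3% and 27.2%. Apart from Adam7, no sperm ADAM gene was called, and the 7 tested of 10 chaperones and processing factors of sperm ADAM proteins were not called either, with differences between -0.28 and 0.22.

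Of the 34 members, 21 lie in 7 runs of neighbouring genes. A run of 5 joins the sperm members Adam18, Adam3, Adam5 and Adam32 to the widely expressed Adam9. In this run Adam9 had no overlap between the diets, at 0.23, while Adam3 and Adam5 overlapped at -0.05 and -0.02 and Adam18 and Adam32 were under 6. The other runs of more than 2 genes are Adam24, Adam25, Adam20 and Adam39, of which none reached 6, and Adam26b, Adam26a, Adam34l and Adam34, of which Adam34l alone did.

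Promoters of the members were read for their base composition. RefSeq start sites in GRCm38.p6 were matched for 18 of the 34 members, with 20 windows of 300 bases that run from 250 before to 50 after the start. The dinucleotide CG, which reads the same on both strands, was counted in them. In 7 windows of 5 shedding members (Adam8, Adam10, Adam15, Adam17 and Adam19) there were 5 to 32 CG, with a median of 11. Adam19 has 3 of these windows, with 5, 11 and 5 CG, so this gene weighs most in that median. The windows of Adam22 and Adam23 held 19 and 31. In 11 windows of testis and sperm members there were 0 to 4, with a median of 1. Adam1a, Adam21 and Adam34l, which reached the level of 6, were among these with 4, 0 and 0. Adam7, Adam9 and Adam12 had no window. Of all 32851 windows, 34.6% held 15 or more, with a median of 7. The 250 bases before the start are shown for Adam17, a sheddase at 6 or more on every array, and for Adam20 and Adam25, testis members under 6, with each CG in capitals. They lie at chr12:21373633-21373882 on the minus strand, at chr8:40793023-40793272 on the plus strand and at chr8:40751958-40752207 on the plus strand, and hold 23, 1 and 1 CG.
Adam17: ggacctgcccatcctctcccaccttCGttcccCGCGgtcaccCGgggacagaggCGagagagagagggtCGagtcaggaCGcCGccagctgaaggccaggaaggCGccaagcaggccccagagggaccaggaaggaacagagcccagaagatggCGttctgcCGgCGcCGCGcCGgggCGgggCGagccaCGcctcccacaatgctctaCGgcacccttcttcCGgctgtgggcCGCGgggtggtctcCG
Adam20: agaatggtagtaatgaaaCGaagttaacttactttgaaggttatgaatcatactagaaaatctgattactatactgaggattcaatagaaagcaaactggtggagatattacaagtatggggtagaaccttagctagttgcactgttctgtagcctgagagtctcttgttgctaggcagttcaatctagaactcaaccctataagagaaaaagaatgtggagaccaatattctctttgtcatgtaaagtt
Adam25: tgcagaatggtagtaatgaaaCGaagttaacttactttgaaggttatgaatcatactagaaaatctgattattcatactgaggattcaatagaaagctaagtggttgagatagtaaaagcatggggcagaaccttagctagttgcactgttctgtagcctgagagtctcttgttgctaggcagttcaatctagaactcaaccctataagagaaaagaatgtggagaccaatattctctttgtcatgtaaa
Aligned with gaps, the sequences of Adam20 and Adam25 were identical at 238 of 246 aligned positions, or 96.7%. Both genes were under the level filter and could not be called, with differences of 0.07 for Adam20 and -0.22 for Adam25. These windows are the reference sequence and not that of NMRI mice.

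The proteins that ADAM proteases work with were read from 10 lists of partners, inhibitors, substrates and ligands. Of 69 listed genes, 66 were named and 62 reached the level of 6. In FD, 2 were called higher, Pcsk6 and Lgi1, and 2 lower, Cdh1 and Egf. The backgrounds over all probe sets tested were 1.33% called higher and 4.28% called lower. The median difference of the 62 was 0.15. Both FD arrays lay above both ND arrays in 37 of the 62, or 59.7%, and below them in 15, beside the backgrounds of 36.3% and 27.2%.

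Among regulators, none of 3 cofactors of ADAM17 was called. Rhbdf1, which encodes iRhom1, was at 0.37, the iRhom-binding protein gene Frmd8 at 0.31 and Rhbdf2, which encodes iRhom2, at 0.12. None of 6 tetraspanins that carry ADAM10 to the surface was called, with differences between -0.32 and 0.39. None of 5 inhibitors of metalloproteases, the Timp genes and Reck, was called, with differences between 0.07 and 0.40. Of 4 proprotein convertases, a family that removes the inhibitory prodomain of ADAM proteases, Pcsk6 was called higher. It was at 10.48 on both FD arrays, against 9.60 and 9.83 on the ND arrays, without overlap, and its difference was 0.77.

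Among substrates, Cdh1, the E-cadherin that ADAM10 cuts in epithelia, was at 9.32 and 9.37 on the FD arrays, against 11.03 and 10.96 on the ND arrays, a difference of -1.65. Egf, whose precursor is cut by ADAM10, was at 8.11 and 8.28 on the FD arrays, against 9.88 and 9.71 on the ND arrays, a difference of -1.60. In both genes the diets were far apart and the duplicates close. Of the epididymal markers given above, 9 of 15 were called lower in FD as well, and their part in the values of Cdh1 and Egf was not tested. None of 8 genes of the Notch pathway was called, with differences between -0.13 and 0.36, and none of 11 cytokines and receptors, with differences between -0.32 and 0.53. The interleukin 6 receptor gene Il6ra, at 0.53, was the highest of these.

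Of the 4 Lgi ligands of the neural members, Lgi1 was called higher in FD. It was at 7.35 and 7.91 on the FD arrays and at 6.71 and 7.05 on the ND arrays, a difference of 0.75 without overlap but with duplicates well apart. Without FD array 2 the difference was 0.48, and without ND array 1 it was 0.58, just under the unrounded threshold, and the call was lost in both cases. Lgi2 had a difference of -0.53 and was not called, although without ND array 1 it was at -0.66 and was called lower.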

How the data were processed

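Gonadal WAT of male NMRI mice was measured as 1 RNA pool of 3 mice for each diet, on 2 arrays a pool. The authors deposited log2 expression values from RMA, the method that the submitters' processing notes name, with 1 probe set a gene. Low array values are compressed. RMA corrects the background and makes the arrays alike in distribution. Its software and version, and the build behind the probe sets, are not stated. No further normalization was applied.

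The FD mean minus the ND mean was computed with Python 3.11.15, pandas 2.3.3 and numpy 2.4.6. The rule of size above stands in for a test, and no p-value was computed. The script that applies it was tested on simulated arrays, which says nothing of noise between pools. The number of arrays limits the precision. Members and gene lists (10 of partners and substrates, 12 of cell types) were chosen with earlier results of these data known. Every member is named. Values by array are given for called members, Adam7, Adam28 and the 12 other members at 6 or more with the largest differences, and up to 4 called genes are named from each list. Stc1, Adamdec1 and the other neighbours, Rhbdf1, Rhbdf2, Frmd8, Il6ra, Lgi2, Pdgfra, Foxd3, Gfra3, Sox10 and the uncalled epididymal markers were named beside the rule, after their values were seen. All 34 members were matched to RefSeq by gene number, and gene order and promoters come from GRCm38.p6. The 11 alternatives changed the level filter, the fold threshold, the scaling (limma 3.58.1 for cyclic loess), low values or the arrays used.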

Additional observations from a re-analysis of the deposited data

How the results depend on the processing

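Adam7 was called lower under all 11 alternatives, and its difference lay between -7.16 and -6.64. It was the one ADAM member called in each of them except the 1.3-fold threshold, where 1 member, Adam12, was called higher. The difference of Adam12 lay between 0.44 and 0.56 over the 7 alternatives that recompute it. The 8 members with FD above ND and no overlap, 7 of them shedding proteases, kept the sign of their difference in all 7. As they were chosen by separation, leaving out an array or raising low values could not turn their sign. Centring the arrays on their medians raised every difference by the same 0.05, so it could not do so either. Cyclic loess alone could have turned a sign. Of the members not chosen in this way, 15 changed sign in at least 1 of the 7 alternatives. The median of the members tested, 14 to 34 of them depending on the level filter and the arrays, was -0.01 with cyclic loess and at most 0.11 elsewhere. Among partners and substrates, 7 were called higher at 1.3-fold and 0 at 2-fold, and between 1 and 3 with 1 array left out. Over all probe sets, 869 were higher and 1333 lower at 1.3-fold, and 41 and 386 at 2-fold, against 242 and 780 at 1.5-fold. No paired analysis was possible because the duplicates of a diet come from 1 RNA pool, the replicate numbers pair no samples across the diets and no test was made. Values under 6 are near the low end of the scale, so differences of the 14 members there and the size for Adam7 are limited by signal.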

Other observations

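Among the cell types not described above, lymphocyte, neutrophil and Schwann cell markers gave 1 called gene each. The backgrounds over all probe sets tested were 1.33% called higher and 4.28% called lower. Of 8 measured markers of B and T lymphocytes, Cd79a, a subunit of the B cell receptor complex, was called higher in FD at 0.82, and the median was 0.22. Cd79a lost its call without FD array 2, at 0.75, when its mean was under 6, with values under 6 set to 6, at 0.53, with the level filter at 7 and with the 2-fold threshold. Of 8 measured neutrophil markers, 6 reached a mean of 6, with a median of 0.07, and of these Ngp, of neutrophil granules, was called lower at -1.62 and the other 5 were not called. Of 5 measured Schwann cell markers, 4 reached a mean of 6, with a median of 0.25. Erbb3, a neuregulin receptor, was called lower at -1.27. Foxd3, Gfra3 and Sox10, at 0.26, 0.24 and 0.31, had both FD arrays above both ND arrays and were not called. Over all probe sets tested, 36.3% had both FD arrays above both ND arrays. Adam8 of myeloid cells, at 0.15, and Adam28 of lymphocytes, at 0.08, were not called.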
